A study of Mus musculus with 8 samples.

Results

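Dendritic cells are the sentinel antigen-presenting cells of the immune system, and they fall into lineages that are told apart by a few transcription factors and surface receptors. Plasmacytoid dendritic cells, which secrete type I interferon, depend on Tcf4 and in mice carry the lectin SIGLEC-H. Type 1 conventional dendritic cells cross-present antigen and depend on Batf3, while type 2 conventional dendritic cells depend on Irf4. Ly-6C-high monocytes are a separate lineage of circulating phagocytes that can give rise to dendritic-like cells in tissues, and the mouse spleen holds a reservoir of them beside its resident dendritic cells.

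A set of 9 genes of the dendritic cell lineages was followed: Siglech, Tcf4, Bcl11a, Batf3, Itgae, Ly75, Cd24a, Irf4 and Cd209a. The array names 28786 genes in all. Of these 9 genes, 8 were found under their symbol in the scanner files, and Batf3 was found by its RefSeq accession under the older name 9130211I03Rik. Together they have 15 of the 41174 probes, 1 probe for 5 genes and several for the other 4.

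The samples were Ly-6C-high monocytes sorted from the spleen (4 samples) and from the blood (4 samples) of 4 healthy, untreated female C57BL/6 mice aged 8 to 12 weeks, fed chow. Each sample held 1000 cells gated high for CD11b and Ly-6C. Cells with the T, B and NK cell antigens CD90, B220, NK1.1 and CD49b or the neutrophil antigen Ly-6G were left out, and CD11c, I-Ab and the macrophage antigen encoded by Adgre1 had to be low. The gate on CD11c matters here, because CD11c protein is high on conventional dendritic cells. RNA was amplified and read on 1-colour arrays, and the comparison asks how splenic monocytes differ from those of the blood.

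All values are log2 expression values from the authors' value table, in which a level of 6.8 was taken as background. From that level up, at least 95% of probes in each step of 0.1 log2 units passed the software's test of signal against background. This was checked on the 5 arrays with a matching scanner file, of which 1 is from blood, leaving out steps with few probes. For the other blood samples the level was carried over. For blood 1, 2 and 3 the scanner file does not match the table's column (rank correlation 0.842 to 0.872). Which of them holds the intended blood samples is not known. Detection by the scanner is therefore given for the other 5 arrays only, where 26539 to 29571 probes were well above background. The number of arrays limits the precision, and p-values measure the spread between samples of the same 4 mice. Monocyte markers had list medians of 12.54 to 12.91 in spleen and 12.27 to 13.18 in blood.

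The probes that bear on how a value is read are shown for 2 genes. These cross an exon junction, since their 60 bases span 672 to 1459 bases of the genome, and so report spliced transcript. Coordinates are as the files give them, on build mm7. The Cd209a probe A_51_P133884 lies on chromosome 8 from 3710076 to 3710747 on the minus strand, and the Itgae probes A_52_P549279 and A_51_P352076 lie on chromosome 11 from 73213308 to 73214293 and from 73227177 to 73228635 on the plus strand.
Cd209a probe A_51_P133884: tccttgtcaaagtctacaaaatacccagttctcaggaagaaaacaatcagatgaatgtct
Itgae probe A_52_P549279: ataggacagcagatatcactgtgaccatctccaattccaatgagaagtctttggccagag
Itgae probe A_51_P352076: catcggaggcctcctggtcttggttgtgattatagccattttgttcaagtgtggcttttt

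Most of these genes had a measurable transcript in the sorted monocytes. On all 8 arrays 7 of the 9 genes had a probe at or above the background level, Ly75 reached it on 4 arrays, and Siglech on none. For 11 of the 15 probes the spot was well above background on all 5 arrays with a matching scanner file, and no probe was saturated. In the plot by sample, only Cd24a and Ly75, the latter with 3 spleen points, have no spleen point at or below a blood point.

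**Figure D1:**
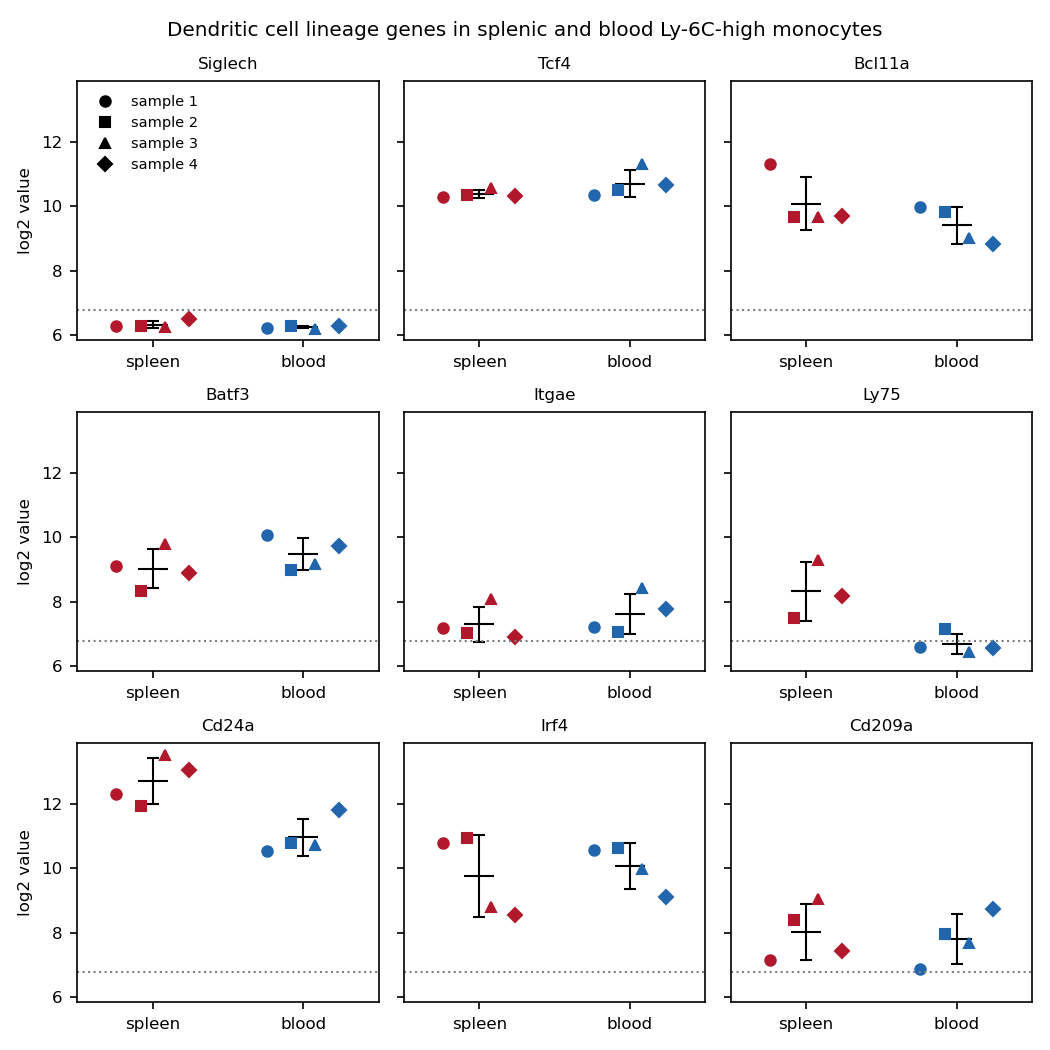
Log2 value of each gene (vertical axis) in the 4 spleen samples (red) and the 4 blood samples (blue), with the brightest probe per gene, the sample number as symbol, and mean and SD as black bars. The dotted line is the background level of 6.8. Cd24a lies between 11.94 and 13.50 in spleen and between 10.54 and 11.81 in blood, and Siglech stays below the line in every sample.

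In limma's test of spleen against blood, none of the 8 tested genes passed an adjusted p of 0.05 (0 of 8), and the same held for all 18266 tested genes (0%). Of the 8 genes, 4 were higher and 4 lower in spleen, with a median difference of -0.05, beside 48.8% higher and a median of -0.01 over all tested genes. Cd24a and Ly75 had an unadjusted p under 0.05, where 5.43% of all tested genes did (3.09% higher and 2.34% lower in spleen). Cd24a had spleen values entirely above the blood values, which was so for 1.88% of all tested genes. Another 1.41% lay entirely below, with 3.3% separated either way. The Ly75 values were separated too, but with only 3 spleen values. That gene passed the filter through the spleen, so its direction was partly fixed by the filter. For the other 6 genes the 95% interval of the difference included 0. Siglech could not be tested, since no sample reached the background level.

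**Figure D2:**
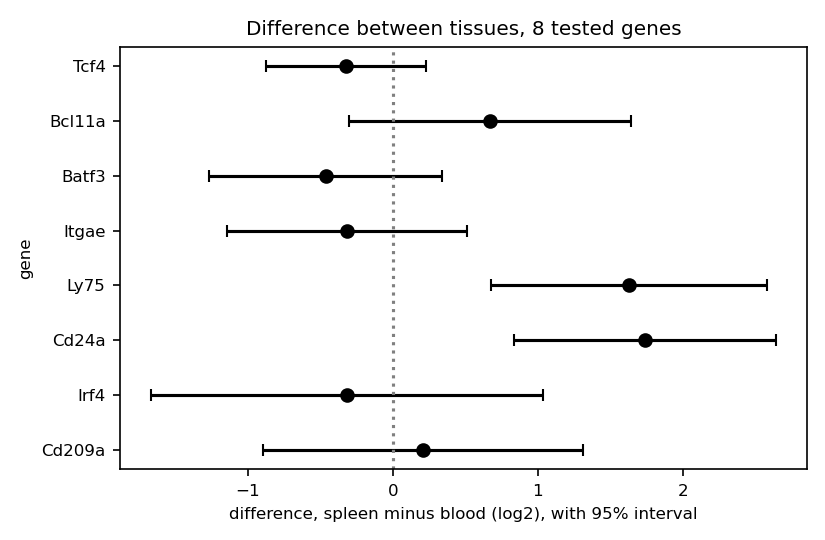
Difference between spleen and blood (horizontal axis, log2, spleen minus blood) with its 95% interval from limma for the 8 tested genes. The intervals of Cd24a (0.84 to 2.64) and Ly75 lie above 0 and those of the other 6 genes cross it, and for Ly75 3 of the 4 blood values are under background.

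Of the genes of plasmacytoid dendritic cells, Siglech was not detected in either tissue in the value table. It encodes a sialic acid-binding lectin that signals through the adaptor DAP12. Its probe read 6.30, 6.28, 6.26 and 6.49 in spleen, against 6.24, 6.30, 6.21 and 6.28 in blood, all below the background level. The scanner software also put its spot at background on all 5 matching arrays. In the value table, where Siglech was undetected, the factor that plasmacytoid cells depend on was detected. Tcf4, the basic helix-loop-helix protein also called E2-2, read 10.29, 10.35, 10.56 and 10.32 in spleen, against 10.34, 10.49, 11.30 and 10.67 in blood, with its brightest probe A_52_P424847. The ranges overlapped, with blood 3 the highest sample. The difference was -0.32 ± 0.25 (SE; 95% interval -0.87 to 0.23; limma's adjusted p = 1), the only one of the 8 whose interval lay within 2-fold either way.

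The 3 probes of Tcf4 did not behave alike. The probe A_51_P265137, the nearest to it in the file's coordinates, was also lower in spleen, at 9.41 ± 0.20 in spleen and 9.85 ± 0.38 in blood (SD, n = 4 each). The third probe, A_52_P521101, spans 53835 bases of the genome and lies at lower coordinates than both. It read 6.66, 8.20, 9.98 and 8.04 in spleen, against 6.98, 7.61, 7.11 and 6.65 in blood, 1.13 ± 0.59 (SE) higher in spleen. Its spleen values spread over more than 3 log2 units and overlapped the blood values. Spleen 3 was the highest sample for that probe while blood 3 was the highest for both other probes. None of the 3 differences passed with each probe tested on its own (limma's adjusted p was 0.948 for A_52_P521101, 0.967 for A_51_P265137 and 1 for A_52_P424847).

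Bcl11a, a zinc finger protein needed for plasmacytoid dendritic cells and for B cells, read 11.30, 9.67, 9.67 and 9.69 in spleen, against 9.98, 9.83, 9.0 and 8.83 in blood, with probe A_52_P82704. Spleen 1 stood more than 1.6 log2 units above the other spleen samples, which lay inside the blood range. The difference was 0.67 ± 0.43 (SE; limma's adjusted p = 1), and 0.27 without spleen 1. Its other probes, A_51_P263004 and A_51_P262998, differed by -0.47 ± 0.36 and -0.06 ± 0.39 (SE), so the direction depended on the probe. B cell markers had list medians of 7.23 to 7.79 in spleen and 7.18 to 7.70 in blood, with 10 to 15 of 17 markers above background in spleen and 10 to 13 in blood. Their part in the Tcf4 and Bcl11a values was not tested.

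**Figure D3:**
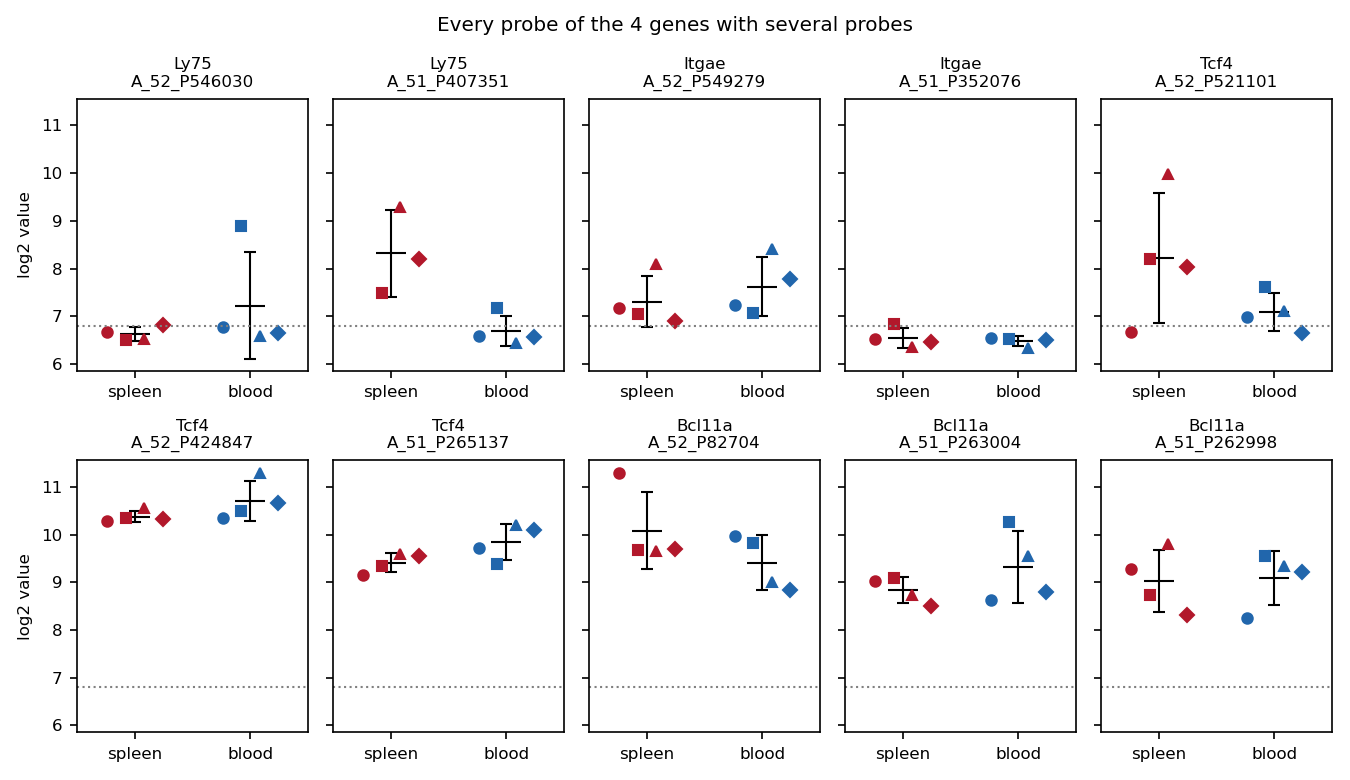
Log2 value (vertical axis) by sample for the 10 probes of the 4 genes with several probes, spleen in red and blood in blue, symbols by sample number (circle 1, square 2, triangle 3, diamond 4), mean and SD in black. Ly75 probe A_51_P407351 separates the tissues in the 3 spleen samples with a value, while A_52_P546030 has 1 high point, blood 2 at 8.89, and 1 of the 3 Tcf4 probes is higher in spleen while the other 2 are lower.

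Of the genes of type 1 conventional dendritic cells, Batf3, an AP-1 family factor needed for their development, was well above background on every matching array. It read 9.09, 8.32, 9.80 and 8.89 in spleen, against 10.06, 8.99, 9.17 and 9.73 in blood. The ranges overlapped, with spleen 2 the lowest sample, and the difference was -0.46 ± 0.36 (SE; 95% interval -1.27 to 0.34; limma's adjusted p = 1).

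Itgae encodes CD103, the integrin alpha E chain, which pairs with beta 7 and binds E-cadherin. Both of its probes are printed above. The first, A_52_P549279, read 7.18, 7.04, 8.10 and 6.90 in spleen, against 7.23, 7.06, 8.42 and 7.78 in blood. These values are close to background and overlap, with the third sample of each tissue the highest. The difference was -0.31 ± 0.37 (SE; limma's adjusted p = 1), and -0.05 without blood 3. The other probe, A_51_P352076, which lies downstream, reached background only in spleen 2, at 6.83, and lay from 6.33 to 6.55 in the other 7 samples. Itgb7, its beta 7 partner, was bright, at 14.48 ± 0.08 (SD, n = 3) in spleen and 14.55 ± 0.18 (n = 3) in blood, with 1 value missing per tissue.

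Ly75 encodes DEC-205, an endocytic receptor that delivers antigen to the presentation pathways. Its probe A_51_P407351 read 7.48, 9.29 and 8.19 in spleen 2, 3 and 4, against 6.59, 7.16, 6.44 and 6.57 in blood. All 3 spleen values were above every blood value, and only blood 2 reached the background level in blood. The table values differed by 1.63 (limma's adjusted p = 0.570), with 3 spleen and 4 blood values. As 3 of the 4 blood values lie under background, this is a difference from background rather than from a measured blood level, and no fold is given. The gene passed the filter through the spleen, where it reached background in 3 samples, so its direction was partly fixed by the filter.

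The missing spleen value bears on that difference. The table is empty for spleen 1, and the matching scanner file put that spot at background, at -6.82 on the scale of log2 signal over the array's 75th percentile. On that scale spleen 2, 3 and 4 read -2.61, 0.14 and -1.24, and blood 4, the only blood array with a matching file, read -5.35. The spot's local background on spleen 1 was marked as an outlier. Neither spleen 1 nor blood 4 was above background, so they have no order, and the separation holds for 3 of the 4 spleen samples. The second Ly75 probe, A_52_P546030, read 6.66, 6.51, 6.52 and 6.82 in spleen, against 6.77, 8.89, 6.60 and 6.64 in blood. It was at or near background everywhere except in blood 2, so the 2 probes gave no common direction.

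Cd24a was above background in all 8 samples and higher in every spleen sample than in any blood sample. It encodes CD24, the heat-stable antigen, a glycoprotein held in the membrane by a lipid anchor, which marks type 1 conventional dendritic cells of the mouse spleen and is also carried by B cells, immature neutrophils and red cell precursors. It read 12.29, 11.94, 13.50 and 13.04 in spleen, against 10.54, 10.77, 10.72 and 11.81 in blood. All 4 spleen samples were above all 4 blood samples, though spleen 2 exceeded blood 4 by little. The means were 12.69 ± 0.71 in spleen and 10.96 ± 0.57 in blood (SD, n = 4 each). The difference was 1.74 ± 0.40 (SE; 95% interval 0.84 to 2.64; 3.33-fold), and limma's adjusted p was 0.428 over all tested genes, so it did not pass. Without any 1 array it lay between 1.47 and 2.02, and between spleen 4 and blood 4, which shared a slide, it was 1.24. In the table's columns of the 5 arrays with matching files, of which 1 is from blood, it was 0.89. With all 8 scanner files, 3 of which hold other arrays, it was -0.81. In sorted cells read in bulk, fewer cells of a type and less RNA per cell cannot be told apart.

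Neutrophil markers and cell division genes were, like Cd24a, higher in spleen by list median. The neutrophil list had medians of 9.45 to 10.70 in spleen and 7.62 to 8.87 in blood, with 13 to 15 of its 17 markers above background in spleen and 9 to 16 in blood. The log2 of its summed signal was 16.17 to 18.01 in spleen and 12.29 to 16.16 in blood. Of 14 markers that passed the filter, 8 had an unadjusted p under 0.05, all higher in spleen, where 3.09% of all tested genes did. Of these 8, Lcn2 reached background in 4 spleen samples and 1 blood sample, so its direction was partly fixed by the filter. The cell division genes had medians of 8.28 to 10.15 in spleen and 6.78 to 7.45 in blood, over all 23 on the array. Of these, 17 to 22 were above background in spleen and 11 to 17 in blood. The medians of blood 1 and 2 lay under the background level, so there the difference is one from background. No count of tested cell division genes is read here, since several, among them Pbk, Ccna2, Rrm2 and Top2a, passed the filter through the spleen. Spleen 3 was the highest sample for Cd24a and for both list medians, and blood 4 was the highest blood sample for each. Elsewhere the order within a tissue differed. Blood 2 was above blood 1 and 3 for Cd24a but had the lowest neutrophil median in blood (7.62). Spleen 2 was the lowest spleen sample for Cd24a, while spleen 1 was the lowest for both list medians. By summed signal, blood 1 was above blood 4 for the cell division genes (13.88 and 13.73). No gene of either list passed the adjusted threshold.

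Erythroid markers had medians of 6.62 to 7.13 in spleen and 6.73 to 6.84 in blood, near background, with 6 to 10 of 15 above it in spleen and 7 to 8 in blood. Of the 7 tested, Alas2, an enzyme of heme synthesis, was higher in every spleen sample than in any blood sample, with means of 8.01 in spleen and 7.14 in blood, a difference of 0.87 ± 0.24 (SE; limma's adjusted p = 0.631). The other 6, among them Hba-a1, Slc4a1, Car1 and Epor, overlapped between tissues, and Klf1, Rhag and Car2 were below background in every sample. The B cell list, given above, overlapped between tissues. The part of neutrophil, erythroid and dividing cell transcripts in the Cd24a difference was not tested.

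**Figure D4:**
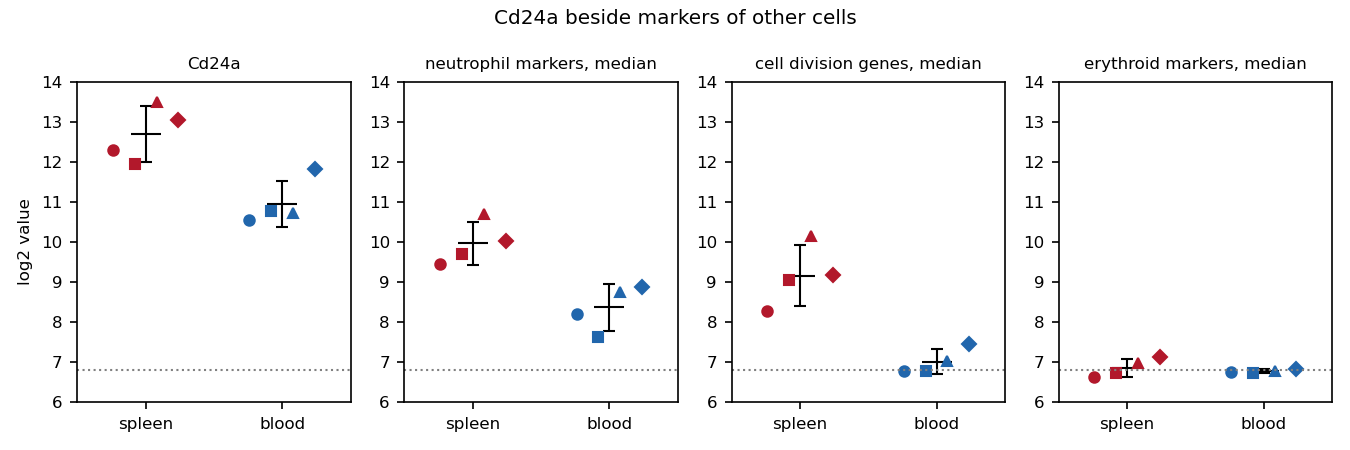
Log2 value (vertical axis) by sample of Cd24a and of the medians of 3 marker lists, spleen in red and blood in blue, symbols by sample number (circle 1, square 2, triangle 3, diamond 4), mean and SD in black, background level dotted. Cd24a, neutrophil markers and cell division genes have no overlap between tissues, and the erythroid list median does. The cell division medians of blood 1 and 2 lie under the background level.

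Irf4, a transcription factor that type 2 conventional dendritic cells and plasma cells depend on, read 10.77, 10.92, 8.79 and 8.55 in spleen, against 10.57, 10.62, 9.99 and 9.10 in blood. In spleen the samples split, with spleen 1 and 2 about 2 log2 units above spleen 3 and 4, and the blood values lay inside the spleen range. The difference was -0.31 ± 0.60 (SE; 95% interval -1.66 to 1.04; limma's adjusted p = 1). It was 0.01 without spleen 3, 0.09 without spleen 4 and -0.70 without spleen 2, so these data give no direction for Irf4. Its spread within a tissue was the widest of the 8 genes, 1.26 (SD, n = 4) in spleen.

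Cd209a is a mouse relative of human DC-SIGN, a C-type lectin found on dendritic cells that develop from monocytes and on part of the Ly-6C-high monocytes themselves. Its junction-crossing probe, printed above, read 7.17, 8.41, 9.04 and 7.44 in spleen, against 6.87, 7.96, 7.67 and 8.72 in blood. Every sample was above background, and the ranges overlapped almost fully. The difference was 0.21 ± 0.49 (SE; 95% interval -0.90 to 1.31; limma's adjusted p = 1). It was -0.13 without spleen 3 and -0.10 without blood 1, and -1.28 between spleen 4 and blood 4, so its sign rested on single samples. Of the other 6 genes listed for the Cd209 family and found on the array, Cd209g, another lectin of the family, was above background in all 4 spleen samples and in the 3 blood samples that had a value, 0.40 ± 0.25 (SE) higher in spleen. Fcer2a, the low-affinity receptor for IgE, stayed near background at 6.92 in spleen and 6.76 in blood. Near-identical members of this family may share signal.

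Other genes of the same lineages were described by lists of known markers. None of their members passed the adjusted threshold in limma's test. Of 11 tested genes of type 1 conventional dendritic cells, 5 were higher and 6 lower in spleen (median -0.07). The smallest p belonged to Naaa, an amidase of lysosomes, at 11.64 ± 0.35 in spleen and 12.15 ± 0.14 in blood (SD, n = 4 each), and to Wdfy4, a protein needed for cross-presentation, at 11.86 ± 0.77 in spleen and 11.20 ± 0.38 in blood. Xcr1, the chemokine receptor that defines these cells, had a probe above background on all 8 arrays. Its other probe, A_52_P490159, reached background in only 1 spleen and 2 blood samples. Clec9a, their receptor for dead cells, reached background in 1 spleen and 1 blood sample. Tlr3 did so in 1 of each with 1 of its 2 probes, and Gcsam in none.

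Of 14 tested genes of type 2 conventional dendritic cells, 8 were higher and 6 lower (median 0.01). Cd1d1, which presents lipids to NKT cells, was above every blood value in all 4 spleen samples, at 9.56, 9.41, 9.24 and 9.33 in spleen, against 7.95, 8.59, 7.82 and 7.87 in blood. Its difference was 1.33 ± 0.23 (SE; limma's adjusted p = 0.169). Mgl2, a galactose-binding lectin of dermal and other type 2 cells, was mostly lower in spleen, at 8.98, 9.08, 8.05 and 7.90 in spleen, against 10.02, 10.62, 10.11 and 8.84 in blood. The tissues overlapped only through blood 4, and the difference was -1.40 ± 0.42 (SE; limma's adjusted p = 0.659).

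Of 17 tested genes of plasmacytoid dendritic cells, 9 were higher and 8 lower (median 0.08). Irf7, which drives type I interferon genes, differed by -1.13 ± 0.39 (SE; limma's adjusted p = 0.733), at 10.93 ± 0.76 in spleen and 12.06 ± 0.42 in blood (SD, n = 4 each). Runx2, a factor of plasmacytoid cell egress from marrow, was at 10.44 ± 0.53 in spleen and 9.5 ± 0.89 in blood.

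Of 21 tested genes shared by conventional dendritic cells and their progenitors, 12 were higher and 9 lower (median 0.14). Itgax, the gene of CD11c, on which the cells were gated low, was 8.57, 9.42, 8.62 and 10.19 in spleen, against 6.68, 7.36, 8.54 and 7.0 in blood. Every spleen value was above every blood value, spleen 1 by 0.03 over blood 3, and limma's adjusted p was 0.570. Adam19, a membrane protease, differed by -1.36 ± 0.45 (SE; limma's adjusted p = 0.729). Flt3, the receptor for the dendritic cell growth factor, was at 8.16 ± 0.54 in spleen and 7.70 ± 0.27 in blood, and Zbtb46, the factor that marks committed conventional cells, at 8.19 ± 0.47 in spleen and 8.41 ± 0.61 in blood (SD, n = 4 each). Kit was below background in every sample. Of the other sort antigens, Ly6c1 was at 12.47 ± 0.43 in spleen and 12.81 ± 0.30 in blood, and H2-Ab1, of the I-A molecule, at 13.40 ± 0.86 in spleen and 12.93 ± 0.40 in blood (SD, n = 4 each). Itgam (CD11b), Adgre1 and Ptprc, the gene of CD45 and its B220 form, each differed by less than 0.01.

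Of 11 tested genes of dendritic cell maturation and migration, 8 were higher and 3 lower in spleen, with a median of 0.37. Over all tested genes 48.8% were higher, with a median of -0.01. Cd274, the checkpoint ligand PD-L1, read 8.87, 7.78, 8.21 and 8.44 in spleen, against 6.76, 6.46, 6.79 and 7.0 in blood, where only blood 4 reached background. The table values differed by 1.57 (limma's adjusted p = 0.153), against blood values mostly under background, and the gene passed the filter through the spleen. Its direction was thus partly fixed by the filter, and it is among the 8 counted as higher. Cd83, an activation marker, was 0.98 ± 0.23 (SE) higher with 3 spleen values (limma's adjusted p = 0.479). The list medians were 7.65 to 8.05 in spleen and 7.12 to 7.43 in blood.

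Among partners and relatives of the followed genes, 17 were tested, 9 higher and 8 lower in spleen (median 0.05). Jun, an AP-1 partner of Batf3, was 0.94 ± 0.34 (SE) higher (limma's adjusted p = 0.756), at 9.13 ± 0.57 in spleen and 8.19 ± 0.45 in blood (SD, n = 4 each). Siglece, an inhibitory SIGLEC of myeloid cells, was at 8.25 ± 0.84 in spleen and 9.31 ± 1.02 in blood. Irf8, the factor that type 1 and plasmacytoid dendritic cells as well as monocytes depend on, was at 12.32 ± 0.39 in spleen and 12.47 ± 0.74 in blood, a difference of -0.15 ± 0.37 (SE).

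The genes whose values over the 8 arrays were most like each followed gene were taken from 16387 other genes with 8 values. They are given by Pearson's r as a description, since the arrays share normalization and the most alike were picked out of so many: between 16 and 35 genes exceeded 0.9 per followed gene. Cd24a was most like Cyb5r4 (0.986) and Txndc17 (0.966), and Cd209a most like Npdc1 (0.976) and Ezh2 (0.95). Tcf4 was most like Siglecf (0.981) and 4930564B18Rik (0.976), and Bcl11a most like Ulk3 (0.976) and Cenpq (0.972). Siglecf was itself near background, with means of 6.82 in spleen and 7.16 in blood. Irf4 was most like Setd1b (0.958) and Trpc1 (0.95), and Itgae most like 1700067K01Rik (0.981) and Dhx37 (0.971). Batf3 was most like TC1523833 (0.959) and Sox10 (0.956). By rank (Spearman's rho) some pairs were less alike, at 0.69 for Itgae and Dhx37 and 0.71 for Bcl11a and Cenpq. Tcf4 had 0.83 with Siglecf and 0.81 with 4930564B18Rik, and the other pairs had 0.93 to 1.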

How the data were processed

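Arrays were scanned and quantified by the authors with Agilent Feature Extraction 9.5.1.1, per the file headers, which gives spot intensity values with no normalization between arrays. The authors' deposited value table holds log2 values, and limma is listed in the submitters' processing notes. Column medians were 7.31, and background subtraction is not stated. The scanner files' spot flags are deposited yes or no marks. Between 583 and 1426 cells per column were empty.

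Probes were named by accession through RefSeq annotation (22951 of 41174), otherwise by the file's name. Probes at or above background on 4 of 8 arrays with 3 values per tissue were kept (25471), and the brightest probe stood for a gene (18266 genes). Spleen was compared with blood by lmFit and eBayes (limma 3.58.1, R 4.3.3), unpaired, with Benjamini-Hochberg adjustment, and the fit was tested on simulated data. Genes and lists were chosen with earlier results of these data known. Named genes are all members, the 2 of smallest p per dendritic list, the 2 most alike genes per member, sort antigens and genes a result turns on. Itgb7, Irf8, Flt3, Zbtb46, Xcr1, Clec9a, Tlr3, Gcsam, Kit, Klf1, Rhag, Car2, Hba-a1, Alas2, Slc4a1, Car1, Epor, Lcn2, Pbk, Ccna2, Rrm2 and Top2a were named after their values were seen. No label says that a replicate number stands for a mouse, so numbers were not taken as pairs. Same-numbered samples' deviations correlated by 0.090 to 0.14, above those of other numbers (-0.12 to 0.034). Alternatives changed the filter, probe choice, variance model, block, source and arrays.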

Additional observations from a re-analysis of the deposited data

Results flagged for a closer look

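In 29 groups of 4 values, 3 samples stood far from the others of their tissue, where chance gives about 5% of groups. Spleen 1 was at 11.30 for the Bcl11a probe A_52_P82704, with the other spleen samples at 9.67 to 9.69. Blood 2 was at 8.89 for the Ly75 probe A_52_P546030, with the other blood samples at 6.60 to 6.77. Spleen 4 was at 6.49 for Siglech, with the others at 6.26 to 6.30, all of them below background.

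The scanner file of blood 1, which holds another array than the table's column for that sample, had a clear Siglech signal. It read 0.14 on the scale of log2 signal over the 75th percentile and was well above background, against -7.52 to -5.35 in the other 7 scanner files. The comparisons do not use that file.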

How the results depend on the processing

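None of the 8 tested genes passed the adjusted threshold in limma's test under any alternative run, including the 8 that leave out 1 array each. Over all 18266 genes the count of passing genes was 7 with the mean over probes, 13 with a random replicate block (correlation 0.21), 1 with a fixed replicate block, 9 with arrays weighted by quality, 8 with a robust variance that follows intensity, 1 with all 8 scanner files, and 0 to 3 with 1 array left out (3 without spleen 1, spleen 2 or blood 1, and 2 without blood 2). Deviations of same-numbered samples correlated weakly (0.090 to 0.14), yet above those of all other numbers (-0.12 to 0.034). Pairing by number therefore remains possible, though no label states it. Under the replicate block no followed gene was called, with Cd24a at an adjusted p of 0.204 (random, limma). Directions turned as follows. All 8 scanner files, 3 of which hold other arrays, gave -0.81 for Cd24a, -1.94 for Cd209a, -0.15 for Ly75, 0.040 for Itgae, 0.59 for Batf3, 0.079 for Tcf4 and -0.18 for Bcl11a. The 5 matching arrays gave -0.91 at the 75th percentile, -0.68 with normexp and -0.71 in the table for Cd209a, and 0.73, 0.65 and 0.65 for Irf4. Single probes gave 1.13 for Tcf4 (A_52_P521101) and -0.058 and -0.47 for Bcl11a (A_51_P262998 and A_51_P263004), and the mean over probes 0.12 for Tcf4. Within the shared slide Cd209a was -1.28. With 1 array left out Cd209a ranged from -0.13 to 0.51 and Irf4 from -0.70 to 0.089 (0.01 without spleen 3). The cause was not tested. Signal near background limits Ly75, Itgae and Siglech.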
